A study of Mus musculus with 6 samples.

Results

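The 10 genes described here are among those whose RNA was shifted in the rods of mouse retinas with oxygen-induced retinopathy (OIR). These 10 were followed through the other cell types of the same retinas. The set is 10 of the 31053 genes in the deposited count tables: Dcdc2a, Igsf21, Calml4, Gnb2, Col5a3, Trp53cor1, Faim, Pdzph1, D16Ertd472e and Sh2d1a. They were picked by symbol, with their OIR against Ctrl differences in rods already known, so their rod values are given as a description, without a p-value, and support nothing here. The question put to the data was whether cones and other retinal cells share the shifts.

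The study compared 3 samples from OIR mice, which spent P7 to P12 (postnatal days) in 75% oxygen and the next 5 days in normal air, with 3 from Ctrl mice kept in normal air. All were taken at P17, and each sample pooled 2 mice. The labels give no strain or sex, and all p-values measure the spread between these samples, which may be partly technical. RNA was captured from single cells in droplets, and each molecule was counted once through its unique molecular identifier (UMI). The samples held 15788524 to 42606878 UMIs, and 38569 cells were kept.

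Rods are the photoreceptors of dim light. They detect it with rhodopsin, the G protein transducin and a phosphodiesterase, and cones do the same in bright light with related proteins of their own. In OIR, high oxygen stops the growth of the young retinal vessels, and on return to air the poorly perfused retina becomes hypoxic and sends out abnormal new vessels. Photoreceptors use more oxygen than most cells.

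The labels describe the material as retinal endothelial cells, yet most of the cells carried other markers. Clusters named by marker genes held 24821 rod-like, 3485 Mueller-like, 3430 cone bipolar-like, 2055 rod bipolar-like, 1926 cone-like, 354 amacrine-like, 244 microglia-like and 236 retinal pigment epithelium (RPE)-like cells, and only 194 vascular endothelial-like cells. The rod-like cells lay in 3 clusters, and all 8 rod markers were detected in each. Rods made up 30.8% to 85.7% of the cells kept in a sample, with the lowest shares in the replicate 1 samples of both groups. Xist, the RNA of the inactive X chromosome, stood at 1509 and 1826 CPM in the rods of Ctrl replicates 2 and 3 and at most at 0.780 CPM in the other 4 samples. Between 3 and 17 barcodes were shared by any pair of samples.

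The members lie on 7 chromosomes of build GRCm38, by the GENCODE vM21 annotation. Dcdc2a (chr13:25056004-25210706, + strand), Igsf21 (chr4:140026846-140246784, - strand), Calml4 (chr9:62858080-62875921, + strand), Gnb2 (chr5:137528127-137533510, - strand) and Col5a3 (chr9:20770050-20815067, - strand) are protein-coding, as are Faim (chr9:98986373-99002021, + strand), Pdzph1 (chr17:58878808-58991375, - strand), D16Ertd472e (chr16:78540338-78576708, - strand) and Sh2d1a (chrX:42502453-42529330, + strand). Trp53cor1 (chr17:29057430-29079179, - strand) is a long intergenic noncoding RNA. Gnb2 overlaps Epo on its own strand, and genes on the other strand overlap 8 members, among them Tenm1 for Sh2d1a. Strand cannot tell apart reads shared by Gnb2 and Epo. Reads shared with genes on the other strand cannot be told apart here where the counting did not use strand.

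The promoters of the 5 members whose cone UMIs in both groups stood above an estimate of rod RNA made without Sag (given with the cone results) are shown to give their regulatory sequence. Each runs from 250 bases before to 50 after the RefSeq gene start (GRCm38.p6), 5′ to 3′ on the gene's strand. Capitals mark matches, on either strand, to ACGTG or GCGTG (the core that hypoxia-inducible factors bind), TAATCC (bound by the photoreceptor factor Crx) or TGCTGA (part of the site of the rod factor Nrl).
Dcdc2a: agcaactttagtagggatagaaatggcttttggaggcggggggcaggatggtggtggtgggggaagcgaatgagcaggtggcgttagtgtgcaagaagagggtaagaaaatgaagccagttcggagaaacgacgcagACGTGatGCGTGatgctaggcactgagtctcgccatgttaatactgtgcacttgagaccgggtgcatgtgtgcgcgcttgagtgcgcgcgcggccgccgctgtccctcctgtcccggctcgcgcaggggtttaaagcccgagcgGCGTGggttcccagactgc
Igsf21: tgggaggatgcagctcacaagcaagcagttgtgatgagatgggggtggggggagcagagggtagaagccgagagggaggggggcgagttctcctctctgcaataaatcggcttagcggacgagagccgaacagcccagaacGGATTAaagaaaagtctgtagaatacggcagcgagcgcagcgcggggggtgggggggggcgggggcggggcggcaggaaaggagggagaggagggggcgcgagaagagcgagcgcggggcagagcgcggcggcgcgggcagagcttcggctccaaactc
Gnb2: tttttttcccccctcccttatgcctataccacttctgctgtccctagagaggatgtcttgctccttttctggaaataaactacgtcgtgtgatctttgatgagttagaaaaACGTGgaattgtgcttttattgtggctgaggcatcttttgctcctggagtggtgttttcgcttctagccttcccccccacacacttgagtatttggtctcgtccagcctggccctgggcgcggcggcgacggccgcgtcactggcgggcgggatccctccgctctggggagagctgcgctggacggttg
Faim: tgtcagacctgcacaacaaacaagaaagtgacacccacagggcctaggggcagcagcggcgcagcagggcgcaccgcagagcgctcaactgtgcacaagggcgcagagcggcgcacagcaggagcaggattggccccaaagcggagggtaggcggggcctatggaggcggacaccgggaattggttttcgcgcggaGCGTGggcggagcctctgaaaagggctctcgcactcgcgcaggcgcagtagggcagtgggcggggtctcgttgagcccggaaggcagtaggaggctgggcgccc
D16Ertd472e: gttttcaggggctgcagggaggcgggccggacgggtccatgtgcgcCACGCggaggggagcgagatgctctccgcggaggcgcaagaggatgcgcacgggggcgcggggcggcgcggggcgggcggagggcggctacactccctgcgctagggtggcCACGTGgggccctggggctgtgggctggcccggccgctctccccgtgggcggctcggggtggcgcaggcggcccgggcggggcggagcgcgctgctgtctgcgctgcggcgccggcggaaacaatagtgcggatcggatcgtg
They lie at chr13:25055754-25056053, chr4:140246762-140247061, chr5:137533257-137533556, chr9:98986123-98986422 and chr16:78576639-78576938.

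A promoter window was found for 8 members. None was found for Sh2d1a or Trp53cor1, so no motif, the p53 site included, was searched for in these genes. ACGTG was present in 3 of them (Dcdc2a, Gnb2 and D16Ertd472e), against 19.6% of all 32817 windows, and GCGTG in 4 (Dcdc2a, Col5a3, Faim and D16Ertd472e), against 32.4%. TAATCC was present in Igsf21 alone, against 7.06%, and TGCTGA in Col5a3 alone, against 19.5%. No member window held the 10-base unit of the p53 site, which 8.36% of all windows held. In the Dcdc2a window, ACGTG began at position -113 and GCGTG at -106 and 32. In D16Ertd472e the ACGTG matches on the 2 strands overlap by 4 bases. The windows of Calml4 and Pdzph1 held none of these motifs. Members that rose and members that fell both carried the hypoxia core. The GC content of the 8 windows ran from 33.7% in Pdzph1 to 77.3% in D16Ertd472e, with a median of 52.7% over all windows.

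In rods, 6 members were higher and 4 were lower in OIR, and for each of the 10 the 3 OIR samples lay apart from the 3 Ctrl samples, as they did for 28.0% of the 11485 genes fitted in rods. These are the values that chose the members. Over those genes 2.64% passed the limits used throughout (adjusted p below 0.05, and a change beyond 0.25 on the log2 scale), 1.61% higher and 1.03% lower. Levels are given as CPM, the UMIs of a gene scaled to a fixed total of UMIs for the cell type in that sample.

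Gnb2 encodes a beta subunit of heterotrimeric G proteins, while rod transducin uses Gnb1. It was the most abundant member of the risers, at 235, 304 and 324 CPM in OIR replicates 1, 2 and 3 and at 80.8, 46.1 and 54.6 CPM in Ctrl replicates 1, 2 and 3. Its mean was 4.76 times as high in OIR (log2 fold change 2.10 ± 0.20, SE). With a term for the Ctrl samples with Xist RNA the log2 fold change of Gnb2 was 1.68. No OIR sample had Xist at such a level, so group and Xist partly coincide in this design. Dcdc2a encodes a doublecortin-domain protein that binds microtubules. It stood at 51.3, 65.7 and 55.5 CPM in OIR and at 15.6, 14.4 and 15.0 CPM in Ctrl (log2 fold change 1.78 ± 0.13). The Ctrl samples lay close together, and each was below every OIR sample.

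Igsf21 encodes an immunoglobulin-family adhesion protein of synapses that binds neurexin. Its levels were 36.2, 58.9 and 46.1 CPM in OIR and 8.0003, 7.81 and 6.10 CPM in Ctrl, a log2 fold change of 2.54 ± 0.20. Calml4 encodes a calmodulin-like protein known as a light chain of an unconventional myosin in brush borders. It stood at 28.1, 66.5 and 49.2 CPM in OIR and at 2.93, 3.25 and 4.21 CPM in Ctrl, so that its mean was 13.8 times as high. The OIR samples spread widely, at 47.9 ± 19.2 CPM (SD, n = 3), and each was above every Ctrl sample.

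Col5a3 encodes a chain of type V collagen, a fibril-forming matrix protein. It stood at 34.4, 38.7 and 40.5 CPM in OIR and at 12.7, 12.7 and 13.3 CPM in Ctrl (log2 fold change 1.40 ± 0.12), the smallest rise of the 6. Trp53cor1, also known as lincRNA-p21, is transcribed next to Cdkn1a and is a known target of p53. It was rare, with 55, 108 and 172 UMIs in the OIR rods and 3, 5 and 6 in the Ctrl rods, or 6.55, 10.6 and 13.7 against 0.585, 0.542 and 0.631 CPM. Its log2 fold change of 3.94 ± 0.37 was the largest of the set and rests on 14 Ctrl UMIs in all.

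Among the 4 members that were lower, Faim encodes an inhibitor of Fas-induced apoptosis. It stood at 98.9, 66.5 and 70.0 CPM in OIR and at 296, 248 and 255 CPM in Ctrl (log2 fold change -1.91 ± 0.19). Pdzph1, which encodes a protein with PDZ and pleckstrin homology domains, stood at 75.8, 53.4 and 50.8 CPM in OIR and at 237, 225 and 201 CPM in Ctrl (-2.03 ± 0.18). For both genes OIR replicate 1 and Ctrl replicate 1 were the highest of their groups, and the highest OIR value was still under the lowest Ctrl value.

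D16Ertd472e, a protein-coding gene still named after a mapped DNA segment, stood at 44.5, 33.9 and 30.8 CPM in OIR and at 117, 108 and 110 CPM in Ctrl (-1.77 ± 0.16). Sh2d1a encodes the adaptor of SLAM-family receptors in T and natural killer cells. In rods it stood at 10.2, 7.84 and 9.74 CPM in OIR and at 27.1, 31.3 and 32.9 CPM in Ctrl (-1.88 ± 0.16). It had no UMI in any microglia-like sum. The gene is X-linked, and Ctrl replicate 1, without Xist, lay with the 2 Ctrl samples that had it.

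**Figure D1:**
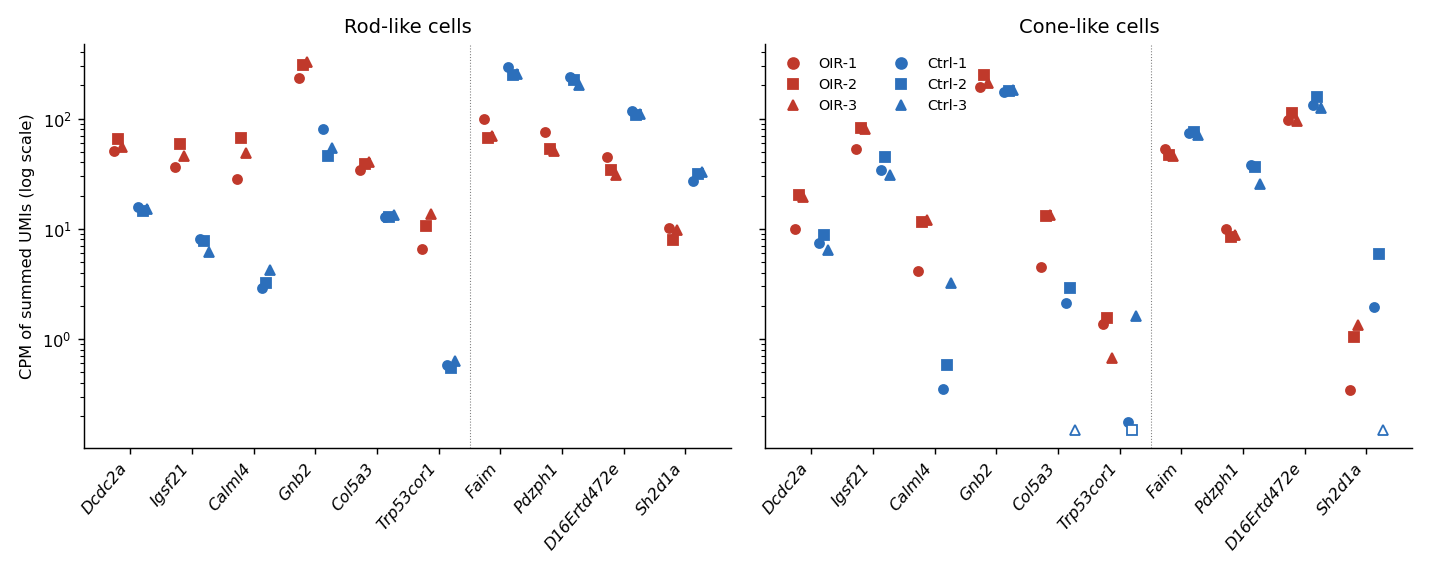
Level of each member in every sample, in CPM of summed UMIs on a log axis, in rod-like cells (left) and cone-like cells (right). Red marks OIR and blue Ctrl, the shape gives the replicate, open symbols at the bottom stand for samples at 0, and members left of the dotted line were higher in OIR rods. In rods the groups are apart for all 10 members (28.0% of all genes), and in cones for 8 (16.9%).

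The rods fell into 3 clusters, of 11198, 7916 and 5707 cells. Most rods of both replicate 1 samples lay in the second (2132 and 1844 cells), while Ctrl replicates 2 and 3 had most of theirs in the first. Within each cluster the OIR and Ctrl samples lay apart for all 10 members in the direction seen over all rods. These are the rods that chose the members, and the share of all genes apart within a cluster was not computed. Gnb2 averaged 184 CPM in OIR against 24.9 in Ctrl in the first cluster, 350 against 107 in the second and 266 against 58.4 in the third. Pdzph1 averaged 104 against 290, 53.1 against 191 and 47.6 against 174 CPM.

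The shifts were also seen as shares of cells. After each rod was thinned to 1000 UMIs, 19.7% to 25.2% of rods in the OIR samples had a Gnb2 UMI, against 3.47% to 7.41% in Ctrl. For Faim the shares were 6.26% to 9.25% against 21.1% to 25.1%, and for Pdzph1 5.66% to 7.16% against 18.1% to 21.3%. Calml4 was found in 2.50% to 5.38% against 0.198% to 0.300% of rods. The groups were apart for all 10 members, thinned or not. These too are the rods that chose the members, and the share of all genes apart by this measure was not computed. Without thinning, Gnb2 was found in 41.2% to 44.5% of OIR rods and 6.96% to 14.0% of Ctrl rods, at median depths of 1912 to 3101.5 and 1401 to 2133.5 UMIs a cell, and thinning left out 154 to 696 rods a sample. Microglia-like cells, thinned alike, had a UMI of Pdzph1 in at most 1.23% and of Dcdc2a and Col5a3 in 0% of cells in every sample, although 0 of the 17 to 81 cells in a sample allows a share of up to 3.70% to 17.6%. Gnb2 and Faim were found in at least 17.6% and 4.76% of microglia-like cells in every sample, so these cells are no background for them.

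**Figure D2:**
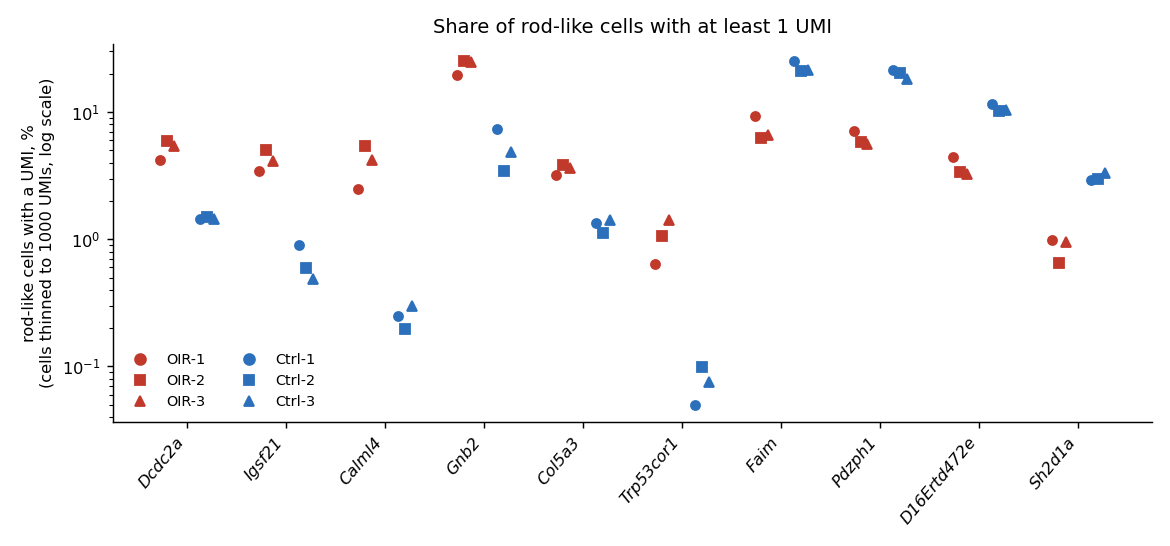
Percentage of rod-like cells with at least 1 UMI of each member in each sample, after thinning every cell to 1000 UMIs, on a log axis. Red marks OIR and blue Ctrl, with the shape giving the replicate. In these rods, which chose the members, no OIR sample overlaps a Ctrl sample for any member. How many of all genes are apart by this measure was not computed. The shares run from 0.0497% for Trp53cor1 in Ctrl to 25.2% for Gnb2 in OIR.

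Of the 10 members, 5 passed edgeR's test in the sums of cone-like cells. Igsf21, Calml4 and Col5a3 were higher there in OIR, and Faim and Pdzph1 were lower. Over the 9408 genes fitted in cones, 1.31% were called, 0.829% higher and 0.478% lower. The filter on low counts was passed by 6 members, and Calml4, Col5a3, Sh2d1a and Trp53cor1 were fitted beside the genes it kept. Cones differ from the rods that chose the members, but they come from the same 6 libraries and their sums hold rod RNA. The rod shifts that chose the members therefore enter the cone counts in part. With an estimate of this RNA taken off, no member was called in cones, as given below.

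Igsf21 stood at 52.9, 82.9 and 80.3 CPM in the cones of OIR replicates 1, 2 and 3 and at 33.9, 44.4 and 30.5 CPM in those of Ctrl (log2 fold change 0.88 ± 0.19, edgeR adjusted p = 0.0212). Its mean was 1.99 times as high in OIR, and the groups did not overlap. The call was lost without OIR replicate 2, OIR replicate 3 or Ctrl replicate 3 (edgeR adjusted p = 0.0936, 0.115 and 0.0801). Pdzph1 stood at 9.96, 8.34 and 8.70 CPM in OIR and at 38.2, 36.3 and 25.7 CPM in Ctrl (-1.995 ± 0.24, edgeR adjusted p = 0.000444), and it remained called whichever of the 6 samples was left out. Faim stood at 53.3, 46.9 and 45.5 against 73.5, 75.4 and 70.7 CPM (-0.64 ± 0.16, edgeR adjusted p = 0.0468), where rods differed by -1.91. Its call was lost on leaving out any sample but OIR replicate 1 (edgeR adjusted p from 0.0664 without Ctrl replicate 1 to 0.213 without OIR replicate 2), by DESeq2 (adjusted p = 0.129), with a term for Xist (0.109) and with clusters made without integration (0.0569).

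Calml4 and Col5a3 were rare in cones. Calml4 was counted 12, 22 and 18 times in the OIR cones and 2, 1 and 2 times in the Ctrl cones (3.56 ± 0.65, edgeR adjusted p = 0.0073). Col5a3 was counted 13, 25 and 20 times against 12, 5 and 0 times, and because Ctrl replicate 1 had the most cones its level there was only 2.12 CPM (2.10 ± 0.50, edgeR adjusted p = 0.0444). All OIR samples lay above all Ctrl samples for both genes. The call of Calml4 was lost without OIR replicate 3 (edgeR adjusted p = 0.0533) or Ctrl replicate 1 (0.0604), and that of Col5a3 on leaving out any sample but OIR replicate 1 (0.0845 without Ctrl replicate 2 to 0.211 without OIR replicate 2), by DESeq2 (adjusted p = 0.0626), with a term for Xist (0.0537), at a mitochondrial limit of 10% (0.0621) and with clusters made without integration (0.0518).

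The other 5 members did not pass. D16Ertd472e stood at 97.6, 112 and 95.7 CPM in OIR and at 132, 156 and 125 CPM in Ctrl, and its log2 fold change of -0.50 ± 0.14 had an edgeR adjusted p of 0.0898. Blocking on the replicate number brought it under the threshold (edgeR adjusted p = 0.0252). Gnb2 stood at 195, 250 and 211 CPM in OIR against 175, 178 and 180 CPM in Ctrl, a log2 fold change of 0.23 ± 0.14 (edgeR adjusted p = 0.553), where rods differed by 2.10. Dcdc2a stood at 9.96, 20.3 and 19.4 against 7.42, 8.77 and 6.42 CPM (0.98 ± 0.31, edgeR adjusted p = 0.153), and it was called without OIR replicate 1 (edgeR adjusted p = 0.0444). These 3 did not overlap between groups, so that 8 members in all were apart in cones, against 16.9% of the genes fitted there. Sh2d1a (5 UMIs in OIR and 21 in Ctrl) and Trp53cor1 (8 and 2 UMIs) overlapped and were too rare in cones to compare.

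RNA of rods was present in the sums of every other type. The 8 rod markers together stood in cones at 17.6% to 35.8% of their level in rods in OIR and at 25.6% to 30.0% in Ctrl, in bipolar, microglia-like and Mueller-like cells at 4.26% to 11.97%, and in amacrine-like and RPE-like cells at 7.73% to 48.9%. The part of this RNA in each result was not tested beyond the values given here. For each member, the UMIs that rod RNA alone would give a type were therefore computed in each sample, as the rod UMIs of the member times the ratio of the rod marker UMIs. A member was taken as above the estimate where the lower bound of the exact 95% Poisson interval of its UMIs was, which covers counting error only. Sag stood apart in cones, at 41.0% of its rod level in OIR and 53.2% in Ctrl, against 10.9% to 20.01% for the other 7 markers. The estimate was therefore also made without Sag, a choice made after the data were seen.

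Set beside this estimate, the cone UMIs of Igsf21, Gnb2 and D16Ertd472e stood far above it in both groups. Igsf21 had 433 UMIs in OIR cones, where rod RNA would give 77.5 (52.9 without Sag), and 287 in Ctrl cones, where it would give 16.6 (7.96). Gnb2 had 1362 against an estimate of 459 (308) in OIR and 1407 against 150 (70.2) in Ctrl. D16Ertd472e had 642 against 58.5 (37.7) in OIR and 1090 against 243 (116) in Ctrl. After the estimate with 8 markers was taken off, Igsf21 stood at 58.8 CPM in OIR and 34.3 in Ctrl, Gnb2 at 140 and 161, and D16Ertd472e at 92.4 and 107. The Gnb2 values thus stood in the opposite order once the estimate with 8 markers was taken off, and that order was not tested. With the estimate without Sag taken off instead, the log2 fold change of Gnb2 was 0.0077 (edgeR adjusted p = 0.994), so the opposite order was not seen.

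The cone UMIs of Calml4, Sh2d1a and Trp53cor1 were not above either estimate, beyond counting error, in either group. Calml4 had 52 UMIs in OIR cones, where rod RNA would give 79.8 (55.5 without Sag), and 5 in Ctrl, where it would give 6.62 (3.18). Pdzph1 had 58 against 96.0 (61.5) in OIR and 294 against 493 (236) in Ctrl, so that only its Ctrl cones went beyond the lower estimate. Col5a3 had 58 against 60.5 (40.2) in OIR and 17 against 27.1 (13.0) in Ctrl. Faim had 313 against 124 (79.5) in OIR and 589 against 600 (285) in Ctrl, so that whether Ctrl cones held Faim beyond rod RNA turned on Sag. Dcdc2a had 97 against 93.7 (62.9) in OIR and 61 against 32.6 (15.5) in Ctrl. With 8 markers 3 members were above the estimate in both groups, and without Sag 5 were.

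When the estimate without Sag was taken off the sums of each sample and the test repeated, no member was called in cones and 79 of 8845 genes were. Igsf21 kept a log2 fold change of 0.84 ± 0.22 (edgeR adjusted p = 0.0848), while that of Faim was -0.02 ± 0.20, that of Gnb2 0.01 ± 0.14 and that of Dcdc2a -0.05 ± 0.47. The log2 fold changes of Pdzph1 (-2.11 ± 0.92), Col5a3 (2.15 ± 0.83) and Calml4 (2.38 ± 1.32) had wider errors (edgeR adjusted p = 0.399, 0.323 and 0.552). They rest on few remaining UMIs, because the estimate came to most or all of the UMIs of these genes in each group. Sums that fell under the estimate were set to 0, so these fold changes do not show what cones held beyond rod RNA. In the cones at or below the median share of rod marker UMIs, Igsf21 (0.94 ± 0.21, edgeR adjusted p = 0.0202) and Pdzph1 (-2.07 ± 0.39, edgeR adjusted p = 0.00638) were the 2 members called, from 47 to 424 cones a sample. Calml4 (3.48 ± 1.01) and Col5a3 (2.72 ± 0.75) missed the threshold there (edgeR adjusted p = 0.105 and 0.0868). That share included Sag, which stood apart in cones. The split therefore sorts cones by Sag as well as by rod RNA, and it cannot decide what cones held beyond rod RNA.

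**Figure D3:**
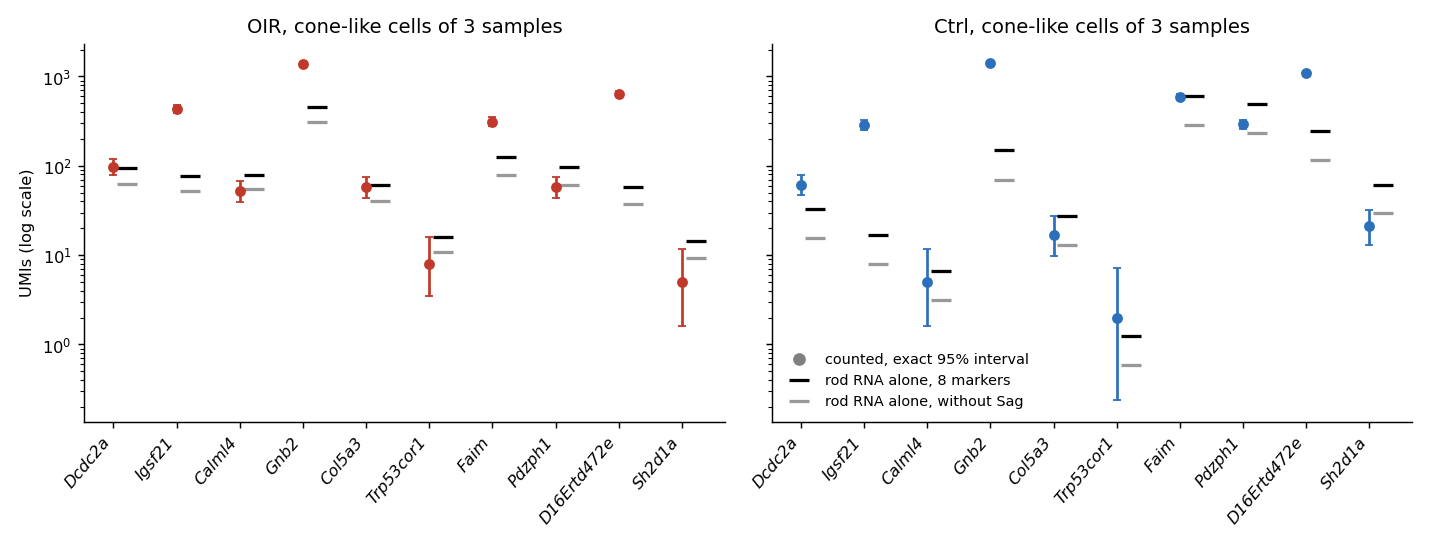
UMIs of each member in the cone-like cells of the 3 OIR samples (left) and the 3 Ctrl samples (right), on a log axis, with exact 95% Poisson intervals that cover counting error only. Black dashes give the UMIs that rod RNA alone would supply by 8 rod markers and grey dashes the same without Sag. Igsf21, Gnb2 and D16Ertd472e stand above both dashes in both groups, and the intervals of Calml4, Sh2d1a and Trp53cor1 reach or lie under both.

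Outside photoreceptors, in the 6 other types tested, a member was called in a type 5 times, in sums that also hold rod RNA. Pdzph1 was lower in OIR in Mueller-like, cone bipolar-like and rod bipolar-like cells, Calml4 was higher in cone bipolar-like cells, and Gnb2 was higher in rod bipolar-like cells. Over all genes 2.52% of 11534 were called in Mueller-like cells (1.50% higher and 1.02% lower), 0.877% of 10261 in cone bipolar-like cells (0.526% and 0.351%) and 2.46% of 9337 in rod bipolar-like cells (1.29% and 1.18%). In RPE-like cells 0.0564% of 1773 genes were called, all lower (94 had an unadjusted p under 0.05), in microglia-like cells 0.324% of 3400 (0.294% higher and 0.0294% lower, with 322) and in amacrine-like cells 0 of 3903 (233 had an unadjusted p under 0.05), where DESeq2 called 2. No member was called in these 3 types by edgeR or DESeq2, and 3 members had an unadjusted p under 0.05 by edgeR, Calml4, Gnb2 and Pdzph1 in RPE-like cells. Only 2 members passed the filter on low counts in each of these types. The lack of calls therefore does not show that these types do not share the shifts.

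Pdzph1 was at low levels in Mueller-like and bipolar cells. It stood at 5.41, 4.06 and 3.57 CPM in the Mueller-like cells of OIR and at 14.6, 9.67 and 15.2 CPM in those of Ctrl (-1.59 ± 0.29, edgeR adjusted p = 0.0217), a call lost on leaving out any OIR sample or Ctrl replicate 3 (0.051 to 0.0915). Its log2 fold change was -1.89 ± 0.32 in cone bipolar-like (edgeR adjusted p = 0.0159) and -1.80 ± 0.36 in rod bipolar-like cells (edgeR adjusted p = 0.0148). The first call was lost without OIR replicate 2 (edgeR adjusted p = 0.0843), and the second without OIR replicate 2 (0.0832), OIR replicate 3 (0.0613) or Ctrl replicate 1 (0.116). In all 3 types its UMIs lay under those that rod RNA would give in both groups, with 66 against 78.5 in OIR and 130 against 231 in Ctrl for Mueller-like cells, 40 against 52.1 and 169 against 254 for cone bipolar-like cells, and 30 against 36.8 and 105 against 145 for rod bipolar-like cells.

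Gnb2 was counted 86, 31 and 19 times in the rod bipolar-like cells of OIR and 36, 4 and 5 times in those of Ctrl, or at 18.1, 17.9 and 12.9 against 6.61, 3.11 and 5.08 CPM (1.53 ± 0.32, edgeR adjusted p = 0.0188). Rod RNA alone would give 141 UMIs in OIR and 46.8 in Ctrl, against the 136 and 45 that were counted. The call was lost without OIR replicate 1, OIR replicate 2, Ctrl replicate 2 or Ctrl replicate 3 (edgeR adjusted p = 0.0621, 0.09, 0.0812 and 0.0567), and with a term for the 2 samples with Xist RNA (1.26 ± 0.36, edgeR adjusted p = 0.102). Elsewhere Gnb2 was abundant in its own right. It averaged 629 CPM in OIR and 436 CPM in Ctrl in Mueller-like cells, where the estimate came to 331 of 8725 and 70.6 of 3916 UMIs. The groups did not overlap there, at 607, 611 and 669 against 357, 465 and 487 CPM, but the log2 fold change of 0.46 ± 0.16 had an edgeR adjusted p of 0.191. The Xist term gave 0.76 ± 0.18 and an edgeR adjusted p of 0.0388 in the same cells.

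Calml4 stood at 33.8, 27.6 and 11.8 CPM in the cone bipolar-like cells of OIR and at 4.63, 6.003 and 12.1 CPM in those of Ctrl (2.01 ± 0.42, edgeR adjusted p = 0.0385). Here OIR replicate 3 and Ctrl replicate 3 overlapped, and the call was lost when OIR replicate 1, OIR replicate 2, Ctrl replicate 1 or Ctrl replicate 2 was left out (edgeR adjusted p = 0.168, 0.159, 0.0794 and 0.0977). The UMIs went beyond rod RNA in both groups, at 289 against 28.3 in OIR and 63 against 3.27 in Ctrl. In the cells with less rod RNA the log2 fold change was 1.798 ± 0.47 and after subtraction 1.84 ± 0.48, and neither was called (edgeR adjusted p = 0.103 in both). Its highest levels were in RPE-like cells, at 299, 970 and 336 CPM in OIR and 137, 224 and 111 CPM in Ctrl, from 180 and 67 UMIs. The log2 fold change there was 1.58 ± 0.43 (edgeR adjusted p = 0.325), and blocking on the replicate number gave 1.70 ± 0.37 (edgeR adjusted p = 0.00342). It was also called without Ctrl replicate 2 (edgeR adjusted p = 0.021).

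The block also brought in Dcdc2a in cone bipolar-like cells (1.805 ± 0.40, edgeR adjusted p = 0.00846), where the fit without it gave 1.74 ± 0.38 (edgeR adjusted p = 0.0523). In rod bipolar-like cells the block added Calml4 (3.00 ± 0.85, edgeR adjusted p = 0.0452) and Sh2d1a (-2.57 ± 0.71, edgeR adjusted p = 0.0402), which were counted 19 and 4 times in OIR and 2 and 27 times in Ctrl. Rod RNA would give 20.5 and 5.27 UMIs of them in OIR and 1.93 and 17.5 in Ctrl.

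**Figure D4:**
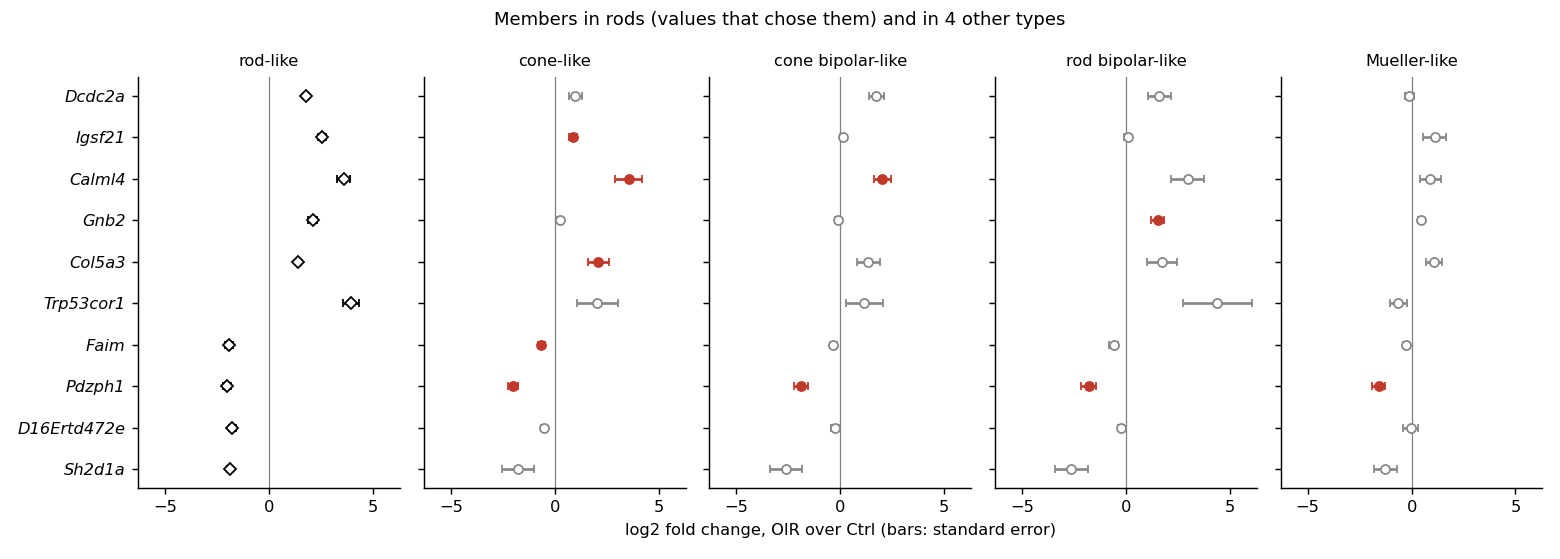
Log2 fold change of each member, OIR over Ctrl, with its standard error, in rod-like cells (diamonds, the values that chose the members) and in 4 other types. Filled red circles passed edgeR's test at an adjusted p under 0.05, and open grey circles did not. Pdzph1 is the member called in all 4 other types, where its UMIs lay under the rod RNA estimate with 8 markers in both groups. Of these 4 types, Igsf21, Col5a3 and Faim are called in cones alone. With all samples, none of them was called in the tests of a difference between cones and another type. For Col5a3 all OIR samples also lay above all Ctrl samples in the types where it was not called. Its means were 5.89 against 2.64 CPM in Mueller-like, 2.77 against 0.707 in cone bipolar-like and 3.09 against 0.565 in rod bipolar-like cells. How many of all genes are apart in these types was not computed.

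Each member had its own order of levels across types. Among the 8 types tested, Gnb2 had its highest means in Mueller-like cells and in microglia-like cells (453 CPM in OIR and 508 in Ctrl), with ranges that overlapped between these types in Ctrl, and its lowest in rod bipolar-like cells. Igsf21 was highest in cone bipolar-like cells, at 162 CPM in OIR and 145 in Ctrl, followed by rod bipolar-like cells, at 131 and 124 CPM, and the ranges of these types overlapped in Ctrl but not in OIR. The log2 fold change of Igsf21 was 0.14 ± 0.16 and 0.09 ± 0.18 in them. Dcdc2a in Ctrl was highest in Mueller-like cells, at 77.3, 58.4 and 44.3 CPM, and its log2 fold change there was -0.12 ± 0.22 (edgeR adjusted p = 0.856), with 829 and 647 UMIs where rod RNA would give 67.2 and 15.3.

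Among the members that were lower in OIR rods, D16Ertd472e was at levels in rod bipolar-like cells (106 CPM in OIR and 121 in Ctrl) and cones (102 and 138) near that of Ctrl rods (112). In rod bipolar-like cells its log2 fold change was -0.24 ± 0.14 (edgeR adjusted p = 0.46). Faim in Ctrl was highest in rods, and in Mueller-like cells it stood at 52.2, 49.1 and 50.002 CPM in OIR and at 58.5, 61.0 and 56.5 CPM in Ctrl (-0.28 ± 0.14, edgeR adjusted p = 0.366). Pdzph1 and Sh2d1a were also highest in Ctrl rods, at 221 ± 18.3 and 30.5 ± 3.00 CPM (SD, n = 3). Trp53cor1 was counted 42 and 45 times in Mueller-like cells of OIR and Ctrl, beyond the 11.2 and 0.583 UMIs of rod RNA, with a log2 fold change of -0.63 ± 0.43 (edgeR adjusted p = 0.56).

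Whether the OIR effect differed between cones and another type was tested by the type by group term in sums of both types, for 3 pairs of types and 10 members each. Gnb2 differed between cones and rod bipolar-like cells, with a log2 fold change lower in cones by 1.29 ± 0.27 (edgeR adjusted p = 0.0198), where 1.53% of 10516 genes were called (0.818% higher and 0.713% lower). The call was lost without OIR replicate 1 (edgeR adjusted p = 0.0882) or Ctrl replicate 3 (0.0576). The rod bipolar-like Gnb2 UMIs in that pair were no more than rod RNA would give, and the members were chosen on rods. This test therefore cannot decide whether the OIR effect differs between the 2 cell types. No member differed between cones and Mueller-like cells (1.18% of 12066 genes called, 0.837% higher and 0.340% lower, with an unadjusted p under 0.05 in 1364) or cone bipolar-like cells (1.07% of 11040, 0.670% higher and 0.399% lower, with 1208). The differences of Igsf21 were 0.66 ± 0.18 against cone bipolar-like cells (edgeR adjusted p = 0.0971) and 0.66 ± 0.21 against rod bipolar-like cells (edgeR adjusted p = 0.161). Without OIR replicate 1 both were called (0.0223 and 0.0127), as was Dcdc2a between cones and Mueller-like cells (1.20 ± 0.32 with all samples, edgeR adjusted p = 0.0653, and 0.0228 without it). Leaving out Ctrl replicate 2 also brought in Dcdc2a (0.047), and leaving out Ctrl replicate 1 brought in D16Ertd472e (0.0327), both against Mueller-like cells. DESeq2 called no member in these 3 comparisons (adjusted p = 0.191 for Gnb2), where 518, 405 and 380 genes had an unadjusted p under 0.05 by it.

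No test was made in astrocyte-like, smooth muscle and pericyte-like or vascular endothelial-like cells, of which some samples held under 10. Gnb2 was counted 149, 1 and 1 times in the endothelial-like cells of OIR and 568, 40 and 26 times in those of Ctrl, and Faim 27, 2 and 1 times against 146, 7 and 10. The other 8 members had at most 20 UMIs in any endothelial-like sum. In smooth muscle and pericyte-like cells Col5a3 was counted 11, 1 and 10 times in OIR and 13, 3 and 4 times in Ctrl, at 25.4 to 238 CPM, more than in OIR rods in 4 of the 6 samples. In the 1682 cells of the unnamed clusters, which include a cluster with both rod and Mueller markers, 4 members were higher in all OIR samples and 4 lower, against 9.89% of 12015 genes apart in either direction.

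The genes around the members gave another view of position. Of the 20 nearest genes tested in rods, 1 on either side of each member, 5 were called higher in OIR rods and 0 lower, against 1.61% and 1.03% of all genes. These were Pax7 and Arhgef10l beside Igsf21 (log2 fold changes 3.71 ± 0.39 and 0.87 ± 0.18), Cln6 beside Calml4 (0.96 ± 0.16), Actl6b beside Gnb2 (1.34 ± 0.14) and Olfm2 beside Col5a3 (0.86 ± 0.14). No neighbour of a member that was lower in OIR rods was called. The called neighbours lay 6074 (Cln6) to 267701 bases (Arhgef10l) from their members. Those of the members that were lower lay 8243 (Nudt12) to 6140868 bases (Mrpl39) away, so the nearest tested gene was often not an adjacent one. These are the rods that chose the members, so the counts are a description. Olfm2 was also called in cones (1.07). Cdkn1a, the p53-controlled cell cycle inhibitor 11797 bases from Trp53cor1, had a log2 fold change of 3.39 ± 0.77 in rods and did not pass (edgeR adjusted p = 0.0563).

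Of the 104 genes tested in rods from lists related to the members by family or pathway, 9 were called (8.65%, against 2.64% of all genes). The lists were chosen with earlier results of these data known, so this share is a description and shows no excess. The medians of the lists ran from -0.35 to 0.50. In rods 1 of 12 G protein beta and gamma subunit genes was called higher (Gng3, 32.7 ± 5.81 CPM in OIR and 11.5 ± 3.80 in Ctrl, SD, n = 3) and none lower, with a median log2 fold change of 0.12, against 0.00 over all genes. Of 17 p53 targets 1 was higher (Bbc3, the cell death gene Puma, 6.14 ± 0.37 against 1.45 ± 0.16 CPM), of 5 doublecortin family genes 1 was higher (Dcx, 1.73 ± 0.52 against 0.209 ± 0.11 CPM), and of 7 Fas pathway and apoptosis genes 1 was lower (Xiap, 226 ± 6.60 against 313 ± 43.2 CPM). Of 13 synaptic adhesion genes 2 were higher (Nrxn3, 26.8 ± 6.35 against 11.5 ± 1.72 CPM, and Igsf8, 25.2 ± 3.22 against 9.80 ± 3.87 CPM). Of 17 photoreceptor stress genes 1 was higher (Cebpb, 9.86 ± 0.76 against 2.91 ± 1.04 CPM).

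Of 26 rod phototransduction genes, 0 were called higher and 2 lower in rods. Rgs9bp, the anchor of the protein that switches transducin off, stood at 162 ± 16.2 against 268 ± 21.7 CPM, and Grk1, rhodopsin kinase, at 307 ± 28.2 against 445 ± 51.4 CPM. None of 7 calmodulin and Calml4 partner genes, of 1 collagen chain gene and of 1 SLAM family gene tested in rods was called.

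In cones 6 of 76 list genes were called (7.89%, against 1.31% of all genes), again a description, since the lists were chosen with earlier results known. There 2 of 9 G protein subunit genes were higher, Gng5 (112 ± 18.7 against 64.9 ± 10.9 CPM) and Gnb4 (21.1 ± 5.56 against 6.46 ± 4.21 CPM). Nrxn3 (55.8 ± 1.37 against 25.4 ± 8.50 CPM) was the 1 of 10 synaptic adhesion genes called, also higher, and Plk2 (25.4 ± 8.03 against 7.18 ± 2.95 CPM) the 1 of 15 p53 targets. Lower in cones were Pcdh15 (305 ± 20.9 against 443 ± 58.0 CPM) of 7 calmodulin and Calml4 partner genes and Slamf1 (2.43 ± 1.77 against 9.29 ± 1.09 CPM) of 2 SLAM family genes. None of 3 doublecortin family genes, 6 Fas pathway genes or 26 rod phototransduction genes was called in cones, and no collagen chain gene was tested there. The cone medians of the lists ran from -0.83 (2 SLAM family genes) to 0.19 (synaptic adhesion).

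For each member, the gene most like it across the 48 sums of 8 types and 6 samples was found by the Pearson correlation of log2(CPM + 1), as a description over sums that share libraries. These were Ldhb for Gnb2 (r = 0.928), Slc16a8 for Calml4 (0.912), Ccdc117 for Pdzph1 (0.859), Gulp1 for Dcdc2a (0.845), Otx2os1 for Igsf21 (0.840) and Hbb-bs for Faim (0.823). They were Oaz1 for D16Ertd472e (0.795), Gm48505 for Sh2d1a (0.760), Cfap206 for Col5a3 (0.757) and Abhd4 for Trp53cor1 (0.574).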

How the data were processed

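Retinas of 3 OIR and 3 Ctrl samples were measured by droplet single-cell RNA sequencing. The values deposited by the authors are raw UMI counts per gene and cell barcode, filtered to cells by Cell Ranger (the study gives GRCh38, while the submitters' processing notes give mm10 and the gene identifiers are of mouse). From there, cells with 500 to 5000 genes and at most 20% mitochondrial UMIs were kept. The OIR dataset and the Ctrl dataset were integrated in Seurat 5.3.0 (2000 genes, 15 components, 20 neighbours, resolution 0.5). Samples within a group were not integrated with each other. The cells were grouped into 23 clusters, of which 19 were named by marker genes as 11 types and 4, with 1682 cells, were not. Doublets were not removed, and the unnamed clusters include one of 942 cells with both rod and Mueller markers.

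Counts were summed per sample and type, and OIR was tested against Ctrl in each type with at least 10 cells in every sample by the quasi-likelihood test of edgeR 4.0.16 in R 4.3.3 (TMM scaling, filterByExpr), with Benjamini-Hochberg adjustment over all genes tested in the type. Members below that filter were added back to the fit. Calls needed an adjusted p below 0.05 and an absolute log2 fold change of 0.25 or more. The SE of a log2 fold change is its size over the square root of the F value. The same script was tested on simulated counts. The study tests cells by rank sums, and sums over samples were used here instead because cells are not replicates.

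The members and lists were chosen with earlier results of these data known. All 10 members are named in every type, list genes where called, the gene with the closest pattern to each member, and the nearest tested gene on either side. Same-numbered OIR and Ctrl samples deviated together over all cells (correlations 0.670, 0.298 and 0.506). The replicate block, fitted as an alternative, pairs them by number. The main fits of OIR against Ctrl in each type did not pair the samples, and their p-values leave this out. Within cones the correlations were 0.167, 0.0542 and 0.0661, and within rods 0.488, 0.267 and 0.348. They were 0.347, 0.140 and 0.194 in cone bipolar-like, 0.303, 0.0892 and 0.161 in rod bipolar-like and 0.228, -0.0268 and 0.244 in Mueller-like cells. The lowest in any type tested was -0.0760, for replicate 2 of microglia-like cells.

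The alternatives were DESeq2 1.42.0, no filter, the replicate block, a term for Xist, a mitochondrial limit of 10%, clusters without integration, the cells with less rod RNA and leaving out each sample. The cells with less rod RNA were chosen by the share of all 8 rod markers, Sag among them. The subtraction of rod RNA, the estimate without Sag and the rod clusters taken alone were added after seeing the data. The photoreceptor stress list is not reported here for cones.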

Additional observations from a re-analysis of the deposited data

Results flagged for a closer look

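The log2 fold change of Gnb2 differed between the sums of cones and rod bipolar-like cells by -1.29 (cone minus rod bipolar). In the test of the difference itself it was called by edgeR (adjusted p = 0.0198) and not by DESeq2 (adjusted p = 0.191). The rod bipolar-like cells held 136 Gnb2 UMIs in OIR and 45 in Ctrl, where rod RNA alone would give 141 and 46.8. Cones were thus set beside no more than rod RNA would give, so the test cannot decide whether the 2 cell types differ. By edgeR the call was also lost without OIR replicate 1 or Ctrl replicate 3.

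The 1682 cells of the clusters left unnamed entered no comparison, and 4 members stood higher there in all 3 OIR samples than in any Ctrl sample and 4 lower. Of the 12015 genes with at least 10 UMIs in these cells, 9.89% were apart in either direction. The mean was 50.2 CPM in OIR and 24.3 in Ctrl for Dcdc2a, 32.0 and 11.5 for Igsf21, 25.1 and 1.75 for Calml4, and 323 and 145 for Gnb2. These cells include the cluster with rod and Mueller markers, and no test was run on them.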

How the results depend on the processing

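In cones 5 members were called, against 3 by DESeq2, 3 with a term for Xist, 3 with clusters made without integration, 2 in the cells with less rod RNA and 0 after rod RNA was subtracted. With the replicate block 6 were called, without the filter 5 and at the lower mitochondrial limit 4, and leaving out 1 sample gave 1 to 6. In the other non-rod types 5 calls became 8 without the filter, 9 with the replicate block, 0 in the cells with less rod RNA and 0 after subtraction, and 0 to 4 on leaving out 1 sample. The share of all genes called moved too. With the block it was 3.81% in Mueller-like, 4.99% in cone bipolar-like, 6.36% in rod bipolar-like and 0.677% in RPE-like cells. Without the filter it was 3.62%, 2.24%, 3.47% and 0.133% in the same order. With less rod RNA it was 2.24%, 0.771%, 1.84% and 0.116%, and after subtraction 2.39%, 0.933%, 2.71% and 0.101%. In the cells with less rod RNA the log2 fold changes were 1.61 for Gnb2 and -1.72 for Pdzph1 in rod bipolar-like, 1.798 for Calml4 and -1.71 for Pdzph1 in cone bipolar-like, and -1.10 for Pdzph1 in Mueller-like cells. The difference between types called for 1 member was called for 0 by DESeq2, for 1 with the block and for 0 to 3 on leaving out 1 sample. The number of members above the rod RNA estimate in cones rose from 3 to 5 without Sag. After subtraction the log2 fold change of Dcdc2a in cones was -0.0499 and that of Pdzph1 in rod bipolar-like cells 2.65 (edgeR adjusted p = 0.649), both with the sign turned. The Pdzph1 UMIs of rod bipolar-like cells were under the estimate in both groups, and sums under it were set to 0. In rods the share of all genes called was unstable, at 2.64% (303 genes) against 0.287% (33) with the Xist term, 5.77% by DESeq2, 1376 of 11485 genes with the replicate block, and 0.346% without Ctrl replicate 2 to 8.50% without Ctrl replicate 1. In cones it ran from 0.516% to 3.75%. The settings with fewer cells or samples also hold fewer UMIs, and the causes of the other changes were not tested. The calls that the block changed stand beside their results. For members with few UMIs in a type, smaller differences could not be detected at this depth.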

Other observations

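In the cells left unnamed, the 4 members lower in OIR rods were lower in all 3 OIR samples than in any Ctrl sample. The means were 63.5 CPM in OIR and 223 in Ctrl for Faim, 33.8 and 120 for Pdzph1, 22.6 and 57.7 for D16Ertd472e, and 3.66 and 17.6 for Sh2d1a. Col5a3 and Trp53cor1 overlapped between the groups.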
